A study of Mus musculus with 2 samples.

Results

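C-type lectin receptors are membrane proteins through which monocytes, macrophages, dendritic cells and neutrophils bind sugars and lipids of microbes and of dying cells. The members described here are Clec4a2, Clec4d, Clec4e, Clec4n, Clec5a, Clec7a, Clec10a and Clec12a, measured by every non-control probe whose RefSeq transcript belongs to one of these 8 genes. The arrays gave 7 probes for 7 of the genes, of 39413 probes and 20653 named genes in all. No probe was matched to Clec7a, the β-glucan receptor, and it was not analysed here. Each of the 7 genes had 1 probe, printed in 1 spot per array, so no member had a second probe against which its value could be set.

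RNA came from M-MDSCs (monocytic myeloid-derived suppressor cells) of 4T1 tumours, 4T1 being a mouse mammary carcinoma line. Female mice of the strain that the labels spell BABL/c, of an age that the labels do not give, each received 1000000 4T1 cells under the skin. The NSD was chow holding 0.4% NaCl with tap water, the HSD was chow holding 4% NaCl with water holding 1% NaCl, and either was fed for 16 days. Cells isolated from the tumours with magnetic beads were pooled within a diet, and each pool was hybridised to 1 one-colour Agilent array, both arrays in the same scan. With a single array per diet no spread between mice could be had and the diets could not be tested, so precision is limited by the number of arrays.

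The receptors fall into classes by how they signal. Clec4d, Clec4e and Clec4n pair with the Fc receptor γ chain, encoded by Fcer1g, and Clec5a pairs with DAP12, encoded by Tyrobp. These adaptors carry activating motifs that recruit the kinase SYK, and SYK acts through CARD9, BCL10 and MALT1 on NF-κB. Clec4a2 and Clec12a instead carry an inhibitory motif in their own tails and recruit phosphatases such as SHP-1, encoded by Ptpn6. Clec10a, also known as MGL1, binds galactose-type sugars and is widely used as a marker of alternatively activated macrophages and of some dendritic cells.

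Signals are processed spot intensities as the scanner software gave them, and log2 fold changes were taken as HSD minus NSD once each log2 signal had been set against the 75th percentile of its array, which was 252 intensity units with NSD and 233 with HSD. Among the 7 measured receptor genes, Clec4e and Clec5a were at least 1.5-fold higher with HSD, Clec4n and Clec10a were at least 1.5-fold lower, and Clec4a2, Clec4d and Clec12a lay within 1.5-fold. Each direction thus held 2 of the 7 genes, or 28.6%. A fold change of 1.5 is the threshold that the study used, and 9.86% of all 16312 genes that could be compared reached it upwards and 10.3% downwards. The receptors had a median log2 fold change of 0.15, against 0.045 for all genes, and ranged from −1.77 to 0.73. The scanner software called all 7 probes well above background with both diets, and none was flagged.

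**Figure D1:**
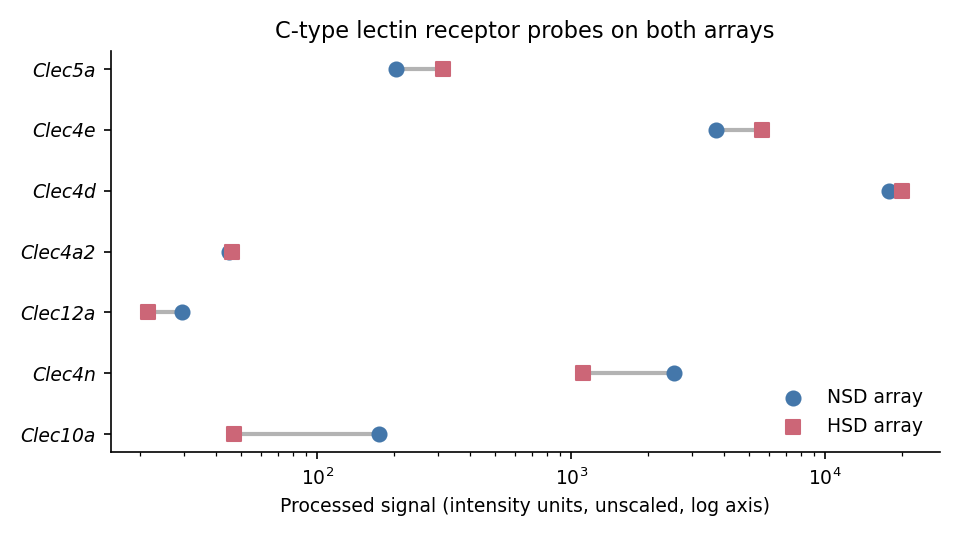
Processed signal (intensity units, log axis) of the probe of each of the 7 receptor genes on the NSD array (circles) and the HSD array (squares), joined by a line, with 1 array per diet and no error bars. Clec4e and Clec5a lie further right on the HSD array, Clec4n and Clec10a further left, and the points of Clec4a2 nearly coincide at 44.8 and 46.1.

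The receptors that pair with the Fc receptor γ chain differed in direction. Clec4e, which encodes Mincle, a receptor for mycobacterial cord factor and for a nuclear protein of dying cells, had a signal of 3721 with NSD and 5620 with HSD. This was a log2 fold change of 0.71, or 1.64-fold higher with HSD, and 6.49% of all genes were as high or higher. Normexp background correction here began from median spot signals, fitted the background over all spots of an array and added 50. With it the log2 fold change of Clec4e was 0.44, which is under 1.5-fold. Clec4d, which encodes MCL, a relative that forms pairs with Mincle, had signals of 17878 and 20061 and a log2 fold change of 0.28. Clec4n, which encodes dectin-2, a receptor for fungal mannans, went the other way, from 2532 with NSD to 1113 with HSD. Its log2 fold change was −1.07, so that it was 2.10-fold lower with HSD, and 3.72% of all genes were as low or lower.

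Clec5a, which encodes the receptor MDL-1 that myeloid cells use with DAP12, had a signal of 204 with NSD and 312 with HSD. This was a log2 fold change of 0.73, or 1.65-fold higher with HSD, close to the value of Clec4e.

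The genes of the inhibitory receptors lay within 1.5-fold. Clec4a2, which encodes DCIR, had signals of 44.8 and 46.1 and a log2 fold change of 0.15. Clec12a, which encodes MICL, a receptor for uric acid crystals, had signals of 29.4 and 21.6 and a log2 fold change of −0.33, or −0.038 with normexp background correction.

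Clec10a differed most between the diets among the 7 genes. Its signal was 174 with NSD and 47.2 with HSD, a log2 fold change of −1.77, so that it was 3.41-fold lower with HSD, and 1.27% of all genes were as low or lower. With normexp background correction the log2 fold change was −1.04. Mgl2, its closest relative among the C-type lectins, had signals of 3407 and 3955 and a log2 fold change of 0.33, in the other direction.

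The noise of single spots could be read from 317 probes that the arrays carried in several spots. Pairs of spots of one probe on one array, at signals within 0.5 log2 units of the member, had an SD of the difference of 0.085 on the log2 scale near Clec4e, 0.10 near Clec4n, and 0.13 near Clec5a and Clec10a. In 95% of pairs the difference was at most 0.18 near Clec4e, 0.20 near Clec4n, 0.25 near Clec5a and 0.27 near Clec10a, so the differences of these 4 genes between the diets were larger. Near Clec4a2 and Clec12a 95% of pairs were within 0.39 and 0.48, wider than the log2 fold changes of both genes. Near Clec4d the bound was 0.23, from only 4 repeated probes, just under its log2 fold change of 0.28. Such pairs say nothing of the noise of labelling, hybridisation or cell isolation, or of the spread between mice.

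**Figure D2:**
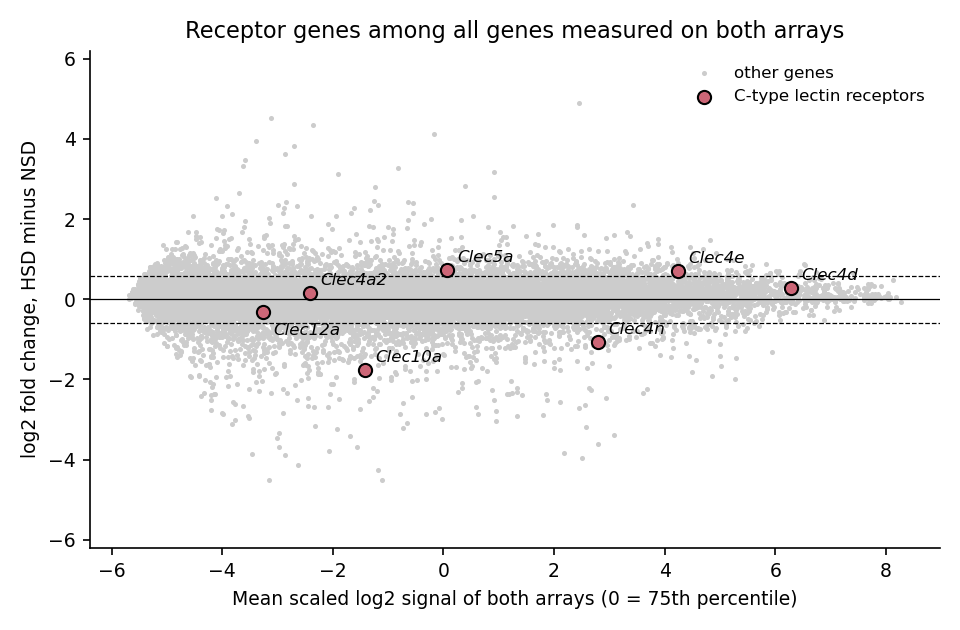
log2 fold change (HSD minus NSD, vertical axis) against the mean scaled log2 signal of both arrays (horizontal axis, 0 at the 75th percentile) for all genes well above background on both arrays (grey) and the 7 receptor genes (red), with dashed lines at 1.5-fold. Clec10a at −1.77 and Clec4n at −1.07 lie below the lower line, Clec4e at 0.71 and Clec5a at 0.73 just above the upper one.

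Clec4a2, Clec4n, Clec4d and Clec4e lie in a row of 9 C-type lectin genes on chromosome 6, with no other protein-coding gene between them in RefSeq's annotation of GRCm38.p6. The order was Clec4a1, Clec4a3, Clec4a4, Clec4b1, Clec4a2, Clec4b2, Clec4n, Clec4d and Clec4e. In this row 5 of the 9 genes were at least 1.5-fold lower with HSD and 1, Clec4e, was at least 1.5-fold higher. Of all genes, 10.3% were lower and 9.86% higher by as much. All 5 genes of the row that are not members had log2 fold changes below 0, and 4 of them were at least 1.5-fold lower. The values were −0.72 for Clec4a1, −0.98 for Clec4a3, −1.02 for Clec4a4, −0.91 for Clec4b1 and −0.39 for Clec4b2. With normexp background correction Clec4a4 was at −0.65 and Clec4b1 at −0.62, and 5 genes of the row were lower and 0 higher by 1.5-fold. Clec4b1 had a second probe, with signals of 32.0 and 10.5 and a log2 fold change of −1.50.

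From one end of the row as far as Clec4n, every gene but Clec4a2 therefore had a log2 fold change below 0, Clec4b2 within 1.5-fold, and the last neighbours, Clec4d and Clec4e, had values above 0. Clec4a1 had signals of 7060 and 3952, and Clec4a3 of 2598 and 1213. The row was set out after its values had been seen. These genes are close relatives, probe sequences were not used here, and whether a probe also bound the RNA of a neighbour was not tested.

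**Figure D3:**
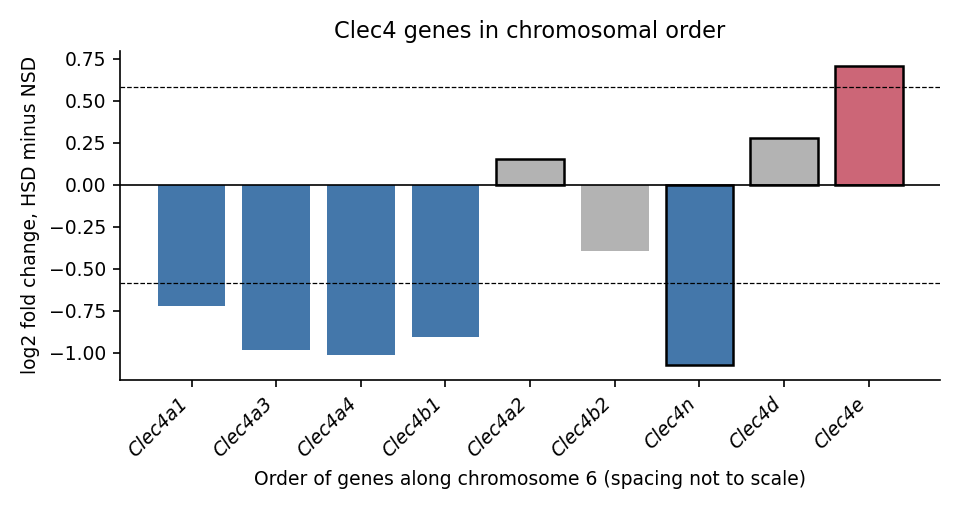
log2 fold change (HSD minus NSD, vertical axis) of the 9 Clec4 genes of the row on chromosome 6 in their chromosomal order (horizontal axis, spacing not to scale), with 1 array per diet. Blue bars were at least 1.5-fold lower with HSD, the red bar at least 1.5-fold higher and grey bars within 1.5-fold, black outlines mark the members, and dashed lines mark 1.5-fold.

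RefSeq promoter sequences of GRCm38.p6, 250 bases before to 50 after a start of the gene, were at hand for 6 of the 8 members, not for Clec4n and Clec10a. Those of Clec4d, Clec4e and Clec5a are shown because Clec4d and Clec4e are neighbours of which one passed 1.5-fold, and Clec5a had a log2 fold change close to that of Clec4e. Capitals mark matches, on either strand, to GAGGAA, a core bound by the myeloid factor PU.1, to TTGCNNAA for C/EBP factors, and to GAAANNGAA for interferon-response factors. Each sequence is written 5′ to 3′ along the strand of the gene.
Clec4d (chr6:123261857-123262156, + strand): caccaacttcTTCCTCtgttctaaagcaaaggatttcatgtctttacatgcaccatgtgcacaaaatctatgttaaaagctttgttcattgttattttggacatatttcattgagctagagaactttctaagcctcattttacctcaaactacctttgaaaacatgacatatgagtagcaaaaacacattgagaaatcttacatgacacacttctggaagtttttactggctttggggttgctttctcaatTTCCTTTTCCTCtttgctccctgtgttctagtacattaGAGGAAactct
Clec4e (chr6:123289822-123290121, − strand): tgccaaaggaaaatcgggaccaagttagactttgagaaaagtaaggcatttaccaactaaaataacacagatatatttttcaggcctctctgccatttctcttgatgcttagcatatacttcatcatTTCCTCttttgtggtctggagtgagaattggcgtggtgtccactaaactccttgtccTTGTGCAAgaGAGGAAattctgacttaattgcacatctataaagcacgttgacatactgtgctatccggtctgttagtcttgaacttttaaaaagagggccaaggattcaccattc
Clec5a (chr6:40585756-40586055, − strand): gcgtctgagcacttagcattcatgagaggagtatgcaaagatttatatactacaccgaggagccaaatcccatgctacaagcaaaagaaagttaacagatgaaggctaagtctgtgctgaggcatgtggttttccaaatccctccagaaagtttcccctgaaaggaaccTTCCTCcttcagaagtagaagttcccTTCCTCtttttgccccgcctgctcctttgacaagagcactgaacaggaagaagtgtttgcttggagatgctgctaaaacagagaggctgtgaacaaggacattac

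GAGGAA stood at 3 positions of the Clec4d promoter, at 2 of the Clec4e promoter and at 2 of the Clec5a promoter. It was found in 5 of the 6 member genes with a sequence and in 28.3% of all 32851 promoters. TTGCNNAA stood once in Clec4e and once in the promoter of Clec12a, and in 10.8% of all promoters. GAAANNGAA stood once in Clec4d, where it overlapped a GAGGAA match, and in 8.56% of all promoters. TGANTCA, for AP-1, was found once each in Clec4a2 and Clec12a and in 7.81% of all promoters, and GGNNTTTCC, for NF-κB, in none of the 6 and in 5.82% of all. A match of letters shows neither binding nor a role in the values above.

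Among 35 other C-type lectin receptors more were lower with HSD than higher. Usable probes were at hand for 27, of which 2 were at least 1.5-fold higher with HSD and 10 at least 1.5-fold lower, and their median log2 fold change was −0.30, or −0.023 with normexp background correction. The other 8 of the 35 were not well above background with either diet. Of the 27 usable genes 7.41% were thus higher and 37.0% lower, against 9.86% and 10.3% of all genes. Among the 10 lower genes 4, Clec4a1, Clec4a3, Clec4a4 and Clec4b1, belong to the row on chromosome 6, so both counts hold them. Cd209a and Klrb1b, also lower, had HSD signals of 1.03 and 2.31, not well above background, so their values are bounds. Mrc1, the macrophage mannose receptor, had a signal of 134 with NSD and 5.49 with HSD, a log2 fold change of −4.50. Its HSD signal was close to the lowest signal called well above background there, 4.39, and with normexp background correction its log2 fold change was −1.56.

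Cd93, a receptor of endothelial and myeloid cells, had signals of 2900 and 1211, a log2 fold change of −1.15. Clec4f, a receptor of liver macrophages, had signals of 59.4 and 28.4, a log2 fold change of −0.95, or −0.34 with normexp background correction. Those at least 1.5-fold higher were Cd302, with signals of 1380 and 2154 and a log2 fold change of 0.76, and Clec9a, a receptor of cross-presenting dendritic cells, with 6.93 and 11.1 and a log2 fold change of 0.80. Both Clec9a signals were low, and its log2 fold change was 0.23 with normexp background correction.

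The adaptor and signalling genes downstream of the receptors mostly lay within 1.5-fold, with more values above 0 than below. All 40 genes of this list had a usable probe, and the median was 0.21. Of the 40, 29 had a log2 fold change above 0, against 8849 of all 16312 genes, or 54.2%. Past 1.5-fold were 4 higher genes (10.0%) and 1 lower gene (2.5%), against 9.86% and 10.3% of all genes. The share of higher genes was thus close to that of all genes. Fcer1g had signals of 24900 and 29246 and a log2 fold change of 0.35, and Syk of 9252 and 10741 with 0.33. Tyrobp had signals of 31358 and 30768 and a log2 fold change of 0.087, which was −0.054 under cyclic loess and below 0 also under quantile normalization and in the authors' deposited values.

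Card9, the adaptor that links SYK to NF-κB, had signals of 98.9 and 99.6 and a log2 fold change of 0.13. Its partners were both higher, Bcl10 with signals of 5239 and 7801 and a log2 fold change of 0.69, and Malt1 with 680 and 1016 and 0.70. Prkcd, the kinase that phosphorylates CARD9, had a log2 fold change of 0.80 by its brighter probe and 0.58 by the other, and Btk had 0.82 and 0.96 by its probes. The lower gene was Casp8, with a log2 fold change of −0.59, or −0.45 with normexp background correction, and it was within 1.5-fold also under quantile normalization and median scaling. Under cyclic loess the log2 fold change of Bcl10 was 0.58, under 1.5-fold.

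Genes that receptor signalling is known to induce, a list of cytokines, chemokines and early genes that other receptors induce too, differed in both directions. Usable probes were at hand for 21, and 9 of these genes were higher by 1.5-fold or more with HSD and 2 lower. The median log2 fold change was 0.39. This list holds Tnf, which the study itself named from these arrays, so its direction is not independent evidence. The neutrophil-attracting chemokines Cxcl2 and Cxcl1 had log2 fold changes of 2.02 and 1.88, the feedback inhibitor Socs3 1.58, Tnf 1.03 and Ptgs2, the inducible cyclooxygenase, 0.95. The lower genes were Il1a at −0.91 and Egr1 at −0.71. With normexp background correction 6 genes were higher and 1 lower, and the log2 fold change was 1.03 for Cxcl1, 0.44 for Ptgs2 and −0.18 for Il1a.

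Marker genes of the cells in the pools were read beside these values. Itgam, which encodes CD11b, had signals of 31564 and 31043, and Ly6c1 of 51811 and 48478. RNA of both defining markers of the labelled cells was thus present, and which cells of the pools it came from was not tested. Other probes gave log2 fold changes of 0.073 and 0.47 for Itgam and −0.42 for Ly6c1. By its brightest probe Ly6c1 was at 0.018, a direction kept in 3 of 8 other ways of processing. Of 9 M-MDSC markers 7 were usable, 1 was higher, 1 lower and their median log2 fold change was 0.018. The lists share genes, so their counts are not separate readings. S100a8 and S100a9 are also in the neutrophil list, and Ccr2 and Csf1r in the monocyte list. Ccr2, at −0.78, is the lower gene of both lists that hold it. Clec9a and Cd209a count among both the other C-type lectins and the dendritic cell markers. S100a8 had signals of 57914 and 56478 and S100a9 of 56112 and 51548, while Arg1 was not well above background with either diet and no probe was matched to Ly6c2 or Ly6g. Neutrophil genes were bright as well. All 11 neutrophil markers with a probe were well above background, among them Camp with signals of 61817 and 59920 and Csf3r with 53939 and 54723, and none was past 1.5-fold, with a median log2 fold change of 0.078. Neutrophils also express Clec4d, Clec4e and Clec5a. In the isolation, cells with Ly-6G, the neutrophil marker, were collected apart from the M-MDSCs, and the part of neutrophil RNA in these signals was not tested.

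Macrophage markers were lower with HSD, as Clec10a and Clec4n were. Lower by 1.5-fold or more were 7 of 9 usable markers, and none was higher, with log2 fold changes of median −2.21 and a range from −3.68 to 0.33. With normexp background correction 6 were lower and the median was −0.74. The brightest were Apoe with a log2 fold change of −0.60, Adgre1, which encodes F4/80, and Trem2 with signals of 3348 and 669 and −2.21. Adgre1 was within 1.5-fold, at −0.55 by its brighter probe and −0.25 by the other. It was past 1.5-fold in 4 of 8 other ways of processing. The signal summed over the list, in units of the 75th percentile of each array, was 75.8 with NSD and 41.4 with HSD. Vsig4 and Cd163 were not well above background with either diet and Cd68 had no matched probe. The part of macrophages in the values of Clec10a and Clec4n was not tested, and in pooled RNA fewer cells of a type and less RNA per cell cannot be told apart.

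Monocyte markers were mixed, with 3 of 9 at least 1.5-fold higher, 1 lower and a median of −0.34. Their summed signal was 322 with NSD and 362 with HSD, although 6 of the 9 lay below 0 and 3 above. The sum leans on Chil3, the brightest of the list, with signals of 34255 and 49710 and a log2 fold change of 0.65. Also among those of highest signal, Ms4a4c had −0.34 by its brightest probe. The other probes of Ms4a4c gave −0.83 and −1.36, so that it was past 1.5-fold by the median over probes, and Chil3 was under 1.5-fold under quantile normalization, under cyclic loess and in the authors' deposited values. Of 10 usable dendritic cell markers 2 were higher and 2 lower, with a median of 0.10 and summed signals of 93.3 and 99.7, and Xcr1 was not well above background with either diet. Of 7 usable platelet markers 4 were at least 1.5-fold lower and 2 lay above 0, with a median of −0.69 and a summed signal of 5.79 against 1.33. Pf4, with signals of 1332 and 245, was by far the brightest of them and makes up most of that sum. For T and NK cells 1 of 11 markers was lower, for fibroblasts 1 of 7 was higher and 3 lower, and for 4T1 cells 3 of 9 were higher. Among the 8 B cell, 7 endothelial and 6 erythroid markers that were usable, none was past 1.5-fold by its brightest probe. Other probes of these genes differed, with log2 fold changes of −2.49 for Kdr, 0.78 for Cr2 and −0.64 for Tfrc, and by the median over probes Kdr was at −1.10 and Cr2 at 0.67. With normexp background correction 1 dendritic cell marker was higher and 0 lower, 1 platelet marker was lower with a list median of −0.054, and 0 fibroblast and 0 4T1 markers were past 1.5-fold. The other markers of highest signal were Siglech, H2-Ab1 and Ccr7 for dendritic cells, Pf4, Ppbp and Treml1 for platelets, Cd3d, Nkg7 and Lck for T and NK cells, Thy1, Col1a1 and Fap for fibroblasts, Esrp1, Cdh1 and Cldn7 for 4T1 cells, Cd79b, Ms4a1 and Blnk for B cells, Plvap, Vwf and Kdr for endothelial cells and Hba-a1, Alas2 and Tfrc for erythroid cells. Among them Pf4, with −2.33, Ppbp, with −2.23, Treml1, with −0.69, and Fap, with −1.34, were past 1.5-fold by their brightest probe. With normexp background correction Pf4 was at −2.06, and Ppbp at −0.52, Treml1 at −0.15 and Fap at −0.58 were within it.

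**Figure D4:**
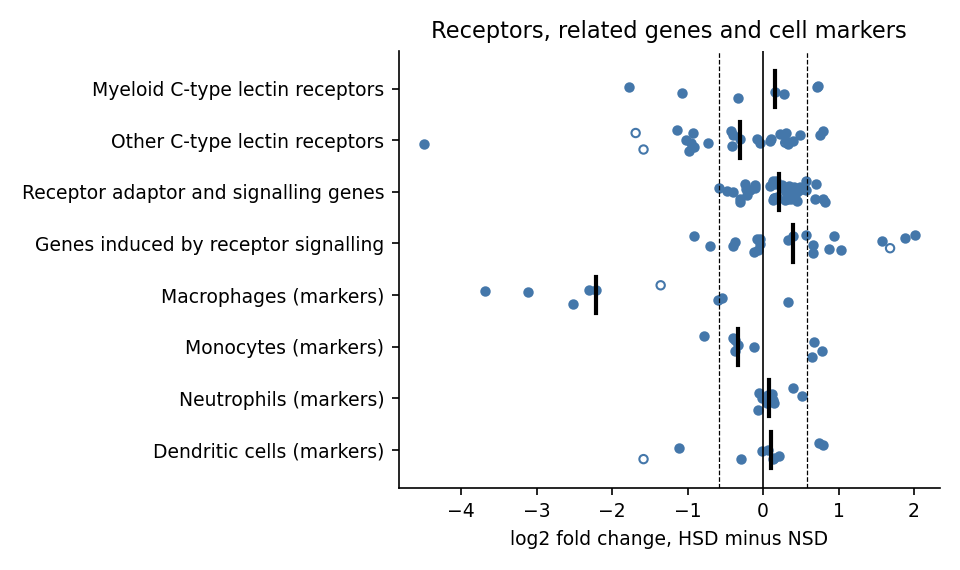
log2 fold change (HSD minus NSD, horizontal axis) of each usable gene of the receptor list, the lists of related genes and 4 lists of cell markers, with black bars at the list medians and dashed lines at 1.5-fold. Open points are lower bounds on the size of a change, where a single array had the probe well above background. The macrophage markers have a median of −2.21, and the neutrophil markers lie between −0.07 and 0.51.

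The changes of the receptors kept their direction in all 8 other ways of processing the signals that give a fold change. Clec4n lay between −1.16 and −0.96, Clec5a between 0.68 and 0.76, and Clec10a between −1.81 and −1.04, all past 1.5-fold throughout. Clec4e was past 1.5-fold in 7 of the 8, between 0.60 and 0.72.

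**Figure D5:**
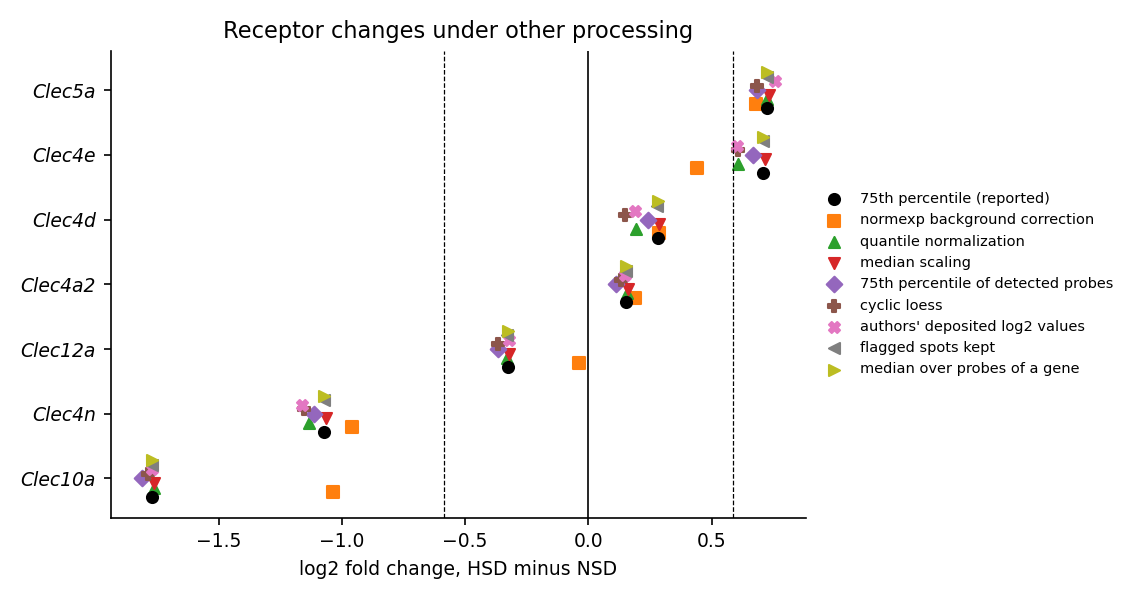
log2 fold change (HSD minus NSD, horizontal axis) of each of the 7 receptor genes as reported (black) and under 8 other ways of processing (coloured symbols), with dashed lines at 1.5-fold. The points of a gene lie close together apart from normexp background correction, which gave 0.44 for Clec4e, −1.04 for Clec10a and −0.038 for Clec12a.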

How the data were processed

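RNA of pooled M-MDSCs was measured on 1 one-colour Agilent array per diet. The authors deposited spot intensities from Feature Extraction 11.0.1.1, corrected for background and spatial trends and not normalized between arrays, and normalized log2 values of the same arrays. The deposited log2 columns, when sorted, differed by at most 0.052 and shared a median of 4.61, and their normalization was made in GeneSpring GX, by a method not given in the sources used here. Here flagged and control spots were left out, log2 signals were averaged over the spots of each probe and set against the 75th percentile of their array. Probes were named through RefSeq transcripts of GRCm38.p6 (27234 of 39429). The brightest probe stood for a gene. A probe dim on one array gave a bound against the lowest signal well above background (4.61 and 4.39), and one dim on both gave none.

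No test was run. The members and lists were chosen with earlier results of these data known. Named beside the members were, per related list, up to 5 genes with the largest change in each direction among those past 1.5-fold and measured on both arrays, plus Syk, Card9, Fcer1g and Tyrobp and, per cell type, the 3 markers of highest signal with Itgam, Ly6c1, Ly6c2 and Ly6g. A marker that the rule names is not reported here. The other named genes, among them the row of Clec4 genes and Mgl2, were added after their values were seen. Counting was tested on simulated data. Python 3.11.15, numpy 2.4.6, pandas 2.3.3, matplotlib 3.10.9, R 4.3.3 and limma 3.58.1 were used. The alternatives were normexp correction of median spot signals (offset 50), 4 other scalings, the deposited values, flagged spots kept, the median over probes, a 2-fold threshold, and other filters on dim probes.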

Additional observations from a re-analysis of the deposited data

How the results depend on the processing

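All 7 receptor genes kept their direction under all 8 alternatives that give a fold change. The median over probes could not alter a receptor, and keeping flagged spots could do so only through the scaling. A change of a receptor was counted as moved when it exceeded 1 SD of the difference between repeated spots at like signal, and of a list median when it exceeded 0.20. Under normexp correction log2 fold changes were 0.44 for Clec4e, −0.96 for Clec4n, −1.04 for Clec10a and −0.038 for Clec12a, and the count of receptors at least 1.5-fold higher was 1. It left 1 other C-type lectin higher with a list median of −0.023, no adaptor gene lower (0), 1 induced gene lower and 0 of the Clec4 row higher. Clec4e was 0.61 under quantile normalization, 0.61 under cyclic loess and 0.60 in the deposited values, and Clec4d was 0.15 under cyclic loess. The count of lower adaptor genes, 1, was 0 under quantile normalization and median scaling. At 2-fold, the counts higher and lower were 0 and 2 for the receptors, 0 and 5 for the other C-type lectins, 0 and 0 for adaptor genes, 5 and 0 for induced genes, and 0 and 2 for the Clec4 row. Without a filter on dim probes 5 other C-type lectins were higher. The normexp alternative began from median spot signals, modelled the background and added 50, and these steps cannot be told apart. The added 50 exceeds both signals of Clec12a, 29.4 and 21.6. The causes of the shifts under the alternatives were not tested. Of all calls on genes, 48.9% were higher, but 38.5% under cyclic loess, 43.0% under quantile normalization and 42.7% to 43.7% with the 75th percentile of detected probes or the deposited values. Over all 16312 genes, 1608 were higher and 1682 lower. With normexp correction 625 and 655 were, at 2-fold 428 and 681, and without a filter 2903 and 2212. No paired analysis was possible because each diet has 1 array. Near the signals of Clec4a2 and Clec12a, repeated spots of one probe differed with an SD of 0.20 and 0.24.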
